A study of Mus musculus with 6 samples.

Results

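Smooth muscle cells and myofibroblasts share a set of genes for a contractile apparatus that differs from the sarcomere of skeletal muscle. The 10 genes described here encode its actins (Acta2, Actg2), its myosin heavy and light chains (Myh11, Myl9), the kinase that switches the light chain on (Mylk), and proteins that bind or organise the actin filament (Tagln, Cnn1, Cald1, Smtn, Lmod1). They were chosen by name, as the probes whose gene name in the scanner files is one of these symbols. The rule uses no measured value, but the set was proposed with earlier results of these data known. All 10 were on the array, with 12 probes among 55681 non-control probes, out of 36499 gene names.

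The treated group held primary myoblasts exposed for 4 days to transforming growth factor beta (TGFb), a secreted factor with a central role in fibrosis, and the other group held myoblasts cultured without it. Both came from skeletal muscle of male C57BL/6 mice aged 3 months and were isolated by flow cytometry, with 3 arrays each. The labels describe independent experiments, but the scanner files of untreated replicates 1 and 2 carry the same number, so p-values may rest on fewer independent cultures than arrays. The TGFb isoform and dose are not given in the sources used here, nor whether animals were pooled.

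In smooth muscle, a rise in calcium activates myosin light chain kinase, which phosphorylates the light chain and lets myosin pull on smooth muscle actins, while calponin and caldesmon restrain the motor. Transcription of many of these genes is driven by serum response factor (SRF) at a DNA element called the CArG box, with myocardin or the actin-sensing MRTF proteins as coactivators. Acta2 in stress fibres is the usual mark of a myofibroblast, and TGFb is the classical inducer of that state.

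Levels below are log2 of processed spot intensity minus the array's own 75th percentile, so 0 is that percentile and a difference of 1 is a doubling. They can be compared between arrays for one probe, but not between probes. The 75th percentile was 876 to 1569 intensity units. The scanner software called 50.6% to 55.8% of probes on an array well above background. The number of arrays limits the precision.

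The arrays were scanned on 2 days, each holding both groups: scan day 1 had TGFb replicate 1 beside untreated replicates 1 and 2, and scan day 2 had the remaining 3 arrays. The median gene differed by 0.78 log2 units in size between scan days, against 0.142 in the authors' deposited normalized values. The gap thus depends on how the intensities were processed, and which step matters was not tested. Each change of the 10 genes is therefore given from a limma fit with group alone and from one with scan day as a second term. With group alone, 0.697% of the 21949 tested genes were higher and 0.702% lower in TGFb-treated cells at an adjusted p under 0.05. The fit with scan day called 4.61% higher and 5.54% lower. At an unadjusted p under 0.05, limma gave 2530 of the 21949 genes with group alone and 5951 with scan day, both directions together. The unadjusted counts of the lists below are to be read beside these. Of all tested genes, 8.39% had every TGFb array above every untreated array and 9.47% the reverse.

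Acta2, Tagln, Cnn1, Actg2, Myl9, Smtn and Cald1 were tested, each well above background on every array. Of these 7, Tagln and Cnn1 rose and none fell in the fit with group alone. At an unadjusted p under 0.05 (limma), 5 were higher and 1 lower, against 2530 of all 21949 tested genes in both directions together. Adding scan day, Tagln, Cnn1, Actg2 and Cald1 rose, Smtn fell, and Acta2 and Myl9 did not pass. Mylk, Myh11 and Lmod1 were too dim to test. The median change of the 7 tested genes was 1.13 log2 units with group alone and 0.86 with scan day, against 0.05 and 0.04 over all tested genes.

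**Figure D1:**
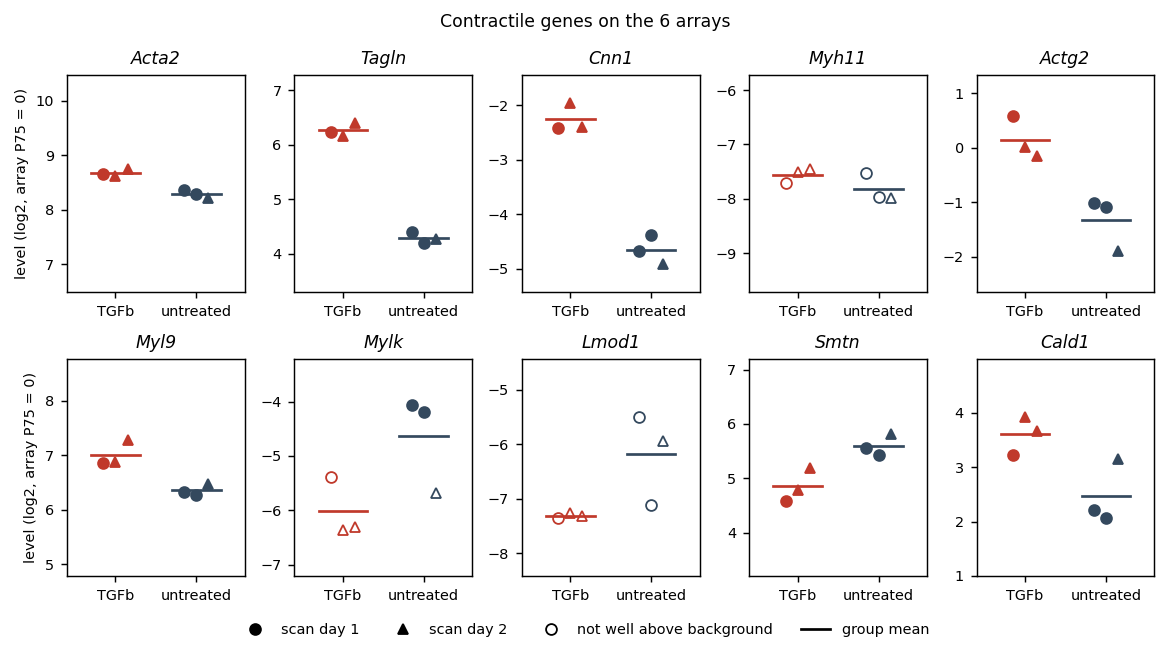
Log2 level of each of the 10 genes on the 6 arrays, relative to the array's 75th percentile; every panel spans the same number of log2 units, circles are scan day 1, triangles scan day 2, open symbols are arrays on which the probe was not well above background, and the line is the group mean. The TGFb points lie above all untreated points for Acta2, Tagln, Cnn1, Actg2, Myl9 and Cald1, and below them for Smtn. They also lie below them for Lmod1, which was not well above background on any array.

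The smooth muscle actins come first. Acta2, smooth muscle alpha actin, had levels of 8.66, 8.61 and 8.75 on the TGFb arrays, against 8.36, 8.29 and 8.22 on the untreated arrays. It was already bright without TGFb, and every TGFb array was above every untreated array by a small step. The change was 0.39 ± 0.23 log2 units (SE, 1.31-fold, n = 3 each) and did not pass (limma adjusted p = 0.624). It was 0.40 ± 0.14 with scan day (adjusted p = 0.144), 0.34 within scan day 1 and 0.47 within scan day 2. Other scalings gave less. Quantile normalization gave 0.10 with group alone (limma adjusted p = 0.908) and 0.33 with scan day (adjusted p = 0.168). Median scaling gave 0.33 with group alone (adjusted p = 0.888) and 0.21 with scan day (adjusted p = 0.708). The array carries 10 copies of this probe (chr19:34316060-34316119, mm9, minus strand), and their coefficient of variation within an array was 2.22% to 4.64%. None of the copies was saturated: mean intensity was 49.3%, 59.8% and 74.8% of the scanner's ceiling on the TGFb arrays and 36.9%, 40.0% and 59.9% on the untreated arrays. Because RNA was taken from whole cultures, more RNA per cell and more cells of an expressing kind cannot be told apart, for this gene or any below.

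Actg2, smooth muscle gamma actin of the gut and other viscera, had levels of 0.59, 0.01 and -0.15 on the TGFb arrays and -1.01, -1.08 and -1.90 on the untreated arrays. The groups did not overlap, and the arrays of scan day 2 were the lower ones in both. With group alone the difference was 1.48 ± 0.37 log2 units (2.79-fold, adjusted p = 0.173). The fit with scan day gave 1.73 ± 0.14 (3.33-fold, adjusted p = 0.00368), with 1.64 within scan day 1 and 1.83 within scan day 2. Without untreated replicate 3, the adjusted p with scan day was 0.0537. The change of Actg2 was thus measured at over 1 log2 unit on each scan day, while that of Acta2 stayed under 0.5; the difference between the genes was not tested.

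The promoter of Acta2 is shown because the CArG box is the best known control element of this gene set. Promoter sequences were those of RefSeq (GRCm38.p6), the 250 bases before the transcription start, and 7 of the 10 genes had one; Tagln, Actg2 and Myh11 had none. The motif was CC, then 6 bases that are each A or T, then GG, which reads as the same motif on the other strand. A looser form, CArG-like, with 1 of the 6 inner bases G or C, was added after the sequences had been seen. Capitals mark either form in the Acta2 promoter (chr19:34255374-34255623, minus strand) and in that of Myl9 (chr2:156775214-156775463, plus strand), the only 2 genes of the 7 with a match. Cnn1 (chr9:22099003-22099252, plus strand), a gene that rose in both fits, is shown beside them with no match.
Acta2: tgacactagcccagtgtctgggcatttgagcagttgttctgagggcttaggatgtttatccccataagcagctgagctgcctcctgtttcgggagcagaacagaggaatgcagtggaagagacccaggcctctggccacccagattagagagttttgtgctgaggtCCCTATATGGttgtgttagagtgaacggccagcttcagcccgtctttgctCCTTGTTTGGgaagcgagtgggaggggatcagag
Myl9: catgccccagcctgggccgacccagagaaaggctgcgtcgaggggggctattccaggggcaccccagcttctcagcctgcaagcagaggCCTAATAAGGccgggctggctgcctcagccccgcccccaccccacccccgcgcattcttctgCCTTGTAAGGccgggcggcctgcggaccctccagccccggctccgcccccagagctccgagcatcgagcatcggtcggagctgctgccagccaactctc
Cnn1: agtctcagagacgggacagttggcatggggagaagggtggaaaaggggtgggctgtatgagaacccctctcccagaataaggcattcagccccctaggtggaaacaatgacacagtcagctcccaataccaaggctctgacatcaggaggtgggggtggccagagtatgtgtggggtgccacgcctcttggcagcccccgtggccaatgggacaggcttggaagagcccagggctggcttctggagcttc

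In the Acta2 window the matches were CCCTATATGG, 84 to 75 bases before the start, and CCTTGTTTGG, 34 to 25 bases before it, both of the looser form. Myl9 had the strict form CCTAATAAGG at 161 to 152 bases and the looser CCTTGTAAGG at 99 to 90 bases before the start. Over 32851 promoters of this length, 1.47% held the strict form and 7.24% the looser one. Neither form was found in the windows of Cnn1, Mylk, Lmod1, Smtn or Cald1, which has 2 listed promoters. Acta2, Myl9, Cnn1, Smtn and Cald1 had both a window and a test. Among these, the genes with a match, Acta2 and Myl9, had the smallest changes in both fits. Tagln and Actg2 were tested but had no window to search, and sequence outside these windows was not examined. Whether the motif relates to the changes was not tested.

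Among the actin-binding proteins, Tagln and Cnn1 had the largest changes. Tagln (transgelin, or SM22 alpha), an actin-bundling protein of smooth muscle, had levels of 6.24, 6.16 and 6.39 on the TGFb arrays and 4.40, 4.19 and 4.26 on the untreated arrays. The groups lay far apart and the spread within each was small. Tagln rose by 1.98 ± 0.24 log2 units (3.94-fold, adjusted p = 0.0235), and by 1.98 ± 0.16 with scan day (adjusted p = 0.00325). Within scan days 1 and 2 the differences were 1.94 and 2.01. Its probe lies at chr9:45738097-45738156 (mm9, minus strand).

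Cnn1, calponin 1, which binds actin and inhibits the myosin ATPase, had levels of -2.42, -1.96 and -2.40 on the TGFb arrays and -4.68, -4.37 and -4.91 on the untreated arrays. It was dim in both groups, yet well above background on every array, and the groups did not overlap. Cnn1 rose by 2.40 ± 0.29 log2 units (5.28-fold, adjusted p = 0.0230), and by 2.42 ± 0.24 with scan day (adjusted p = 0.00550). The differences within scan days 1 and 2 were 2.11 and 2.74. The size depended on how the intensities were processed: it was 1.42 with normexp correction (adjusted p = 0.0577) and 1.30 in the authors' deposited normalized values (adjusted p = 0.00129). In both of those settings the change of Tagln was the larger one, at 1.95 and 1.82. The Cnn1 probe lies at chr9:21913058-21913117 (mm9, plus strand).

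The calls of both genes with group alone were lost when any of the 6 arrays was left out, with adjusted p of 0.0518 to 0.192 for Tagln and 0.0517 to 0.174 for Cnn1. With scan day, both calls were lost only without untreated replicate 3, the lone untreated array of scan day 2 (adjusted p = 0.0526 for Tagln and 0.0694 for Cnn1). The changes themselves stayed at 1.92 to 2.04 for Tagln and 2.11 to 2.74 for Cnn1 over all arrays left out in either fit.

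**Figure D2:**
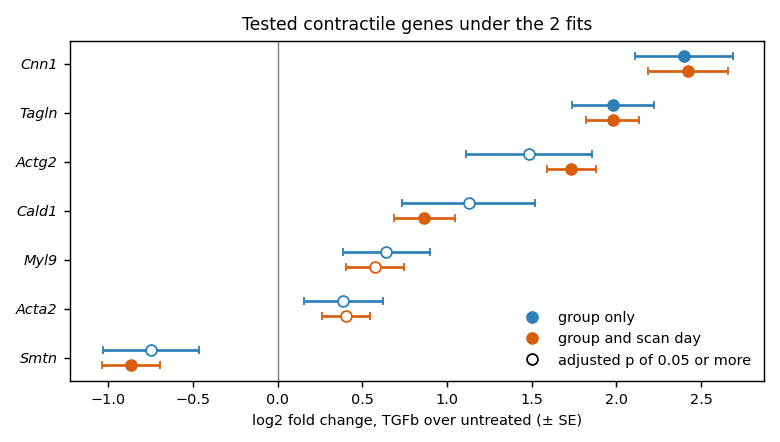
Log2 fold change (TGFb over untreated, ± SE, 3 arrays per group) of the 7 tested genes from the fit with group alone (blue) and with scan day as a term (orange); filled points have an adjusted p under 0.05. Cnn1 and Tagln are filled in both fits, Actg2, Cald1 and Smtn only with scan day, and Acta2 and Myl9 in neither.

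Cald1, caldesmon, which blocks the myosin binding surface of actin and is made in a smooth muscle and a nonmuscle form, was read by 2 probes. The one with the higher mean (chr6:34723839-34723898, mm9, plus strand) had levels of 3.22, 3.93 and 3.66 on the TGFb arrays and 2.22, 2.06 and 3.15 on the untreated arrays. The groups did not overlap, but untreated replicate 3 came within 0.1 log2 units of the lowest TGFb array, and it was scanned on the other day. With group alone the difference was 1.13 ± 0.39 log2 units (2.19-fold, adjusted p = 0.334). Cald1 rose by 0.86 ± 0.18 with scan day (adjusted p = 0.0446), with 1.08 within scan day 1 and 0.65 within scan day 2. The other probe (chr6:34723634-34723693, mm9, plus strand) had levels of 3.24, 2.56 and 3.02 on the TGFb arrays and 2.10, 2.08 and 1.86 on the untreated arrays, with no overlap. Over all 30154 tested probes it was 1.04 ± 0.19 higher with scan day (adjusted p = 0.0356). On that probe scale the first had an adjusted p of 0.0533. The gene's call was kept when TGFb replicate 3 was left out (adjusted p = 0.0270) and lost without any other array (0.0872 to 0.191).

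Smtn, smoothelin, a cytoskeletal protein of contractile smooth muscle, was the tested gene that went the other way. Its brighter probe (chr11:3417530-3417589, mm9, minus strand) had levels of 4.59, 4.79 and 5.18 on the TGFb arrays and 5.56, 5.43 and 5.82 on the untreated arrays. All TGFb arrays were lower, and the group-alone difference of -0.75 ± 0.28 log2 units did not pass (adjusted p = 0.391). With scan day Smtn fell by 0.87 ± 0.17 (adjusted p = 0.0384), and the differences were -0.90 within scan day 1 and -0.83 within scan day 2. That call was kept without TGFb replicate 3 (adjusted p = 0.0202) and lost without any other array (0.0597 to 0.206). The second Smtn probe is printed because it gave the wider separation of the pair (chr11:3420834-3420893, mm9, minus strand, as the scanner files give it).
Smtn second probe: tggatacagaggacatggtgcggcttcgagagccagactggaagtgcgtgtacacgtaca

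That probe had levels of 1.85, 1.85 and 1.86 on the TGFb arrays and 3.18, 2.99 and 3.05 on the untreated arrays. The TGFb arrays were nearly alike and more than 1 log2 unit below every untreated array. The difference was -1.22 ± 0.24 with group alone (adjusted p = 0.104 over all tested probes) and -1.21 ± 0.15 with scan day (adjusted p = 0.0116). Both probes of Smtn were therefore lower with TGFb, and the brighter one lies nearer to the gene's 3′ end on mm9. Which exon or transcript each probe reads was not analysed here.

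On the myosin side of the apparatus, only Myl9 could be tested, and it passed in neither fit. Myl9, the regulatory light chain of smooth muscle myosin, had levels of 6.85, 6.87 and 7.27 on the TGFb arrays and 6.33, 6.27 and 6.47 on the untreated arrays. The groups did not overlap, and the TGFb arrays were higher by about the same step on each scan day. The difference was 0.64 ± 0.26 log2 units (1.56-fold, adjusted p = 0.424), and 0.58 ± 0.17 with scan day (adjusted p = 0.101), and neither passed. It did pass in the authors' deposited normalized values, at 0.68 ± 0.11 (limma adjusted p = 0.00679). The Myl9 probe lies at chr2:156607301-156607360 (mm9, plus strand).

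Mylk, the kinase that phosphorylates the Myl9 protein, had processed intensities of 22.6, 14.4 and 17.1 on the TGFb arrays and 52.6, 54.5 and 30.7 on the untreated arrays (chr16:35001266-35001325, mm9, plus strand). The probe was well above background on untreated replicates 1 and 2 only. Both of those arrays are of scan day 1. After scaling, untreated replicate 3 had a level of -5.67. It lay below TGFb replicate 1 of the other scan day (-5.39) and above the TGFb arrays of its own day (-6.36 and -6.30). On scan day 2 the probe was read above background in neither group. No fold is given, and Mylk was not tested.

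Myh11, the smooth muscle myosin heavy chain and the most specific marker of differentiated smooth muscle, was not well above background on any array. Its processed intensities were 4.52, 6.50 and 7.73 on the TGFb arrays and 4.74, 3.99 and 6.22 on the untreated arrays, and the groups overlapped after scaling. The probe is printed because the gene's reading rests on it alone (chr16:14202190-14202249, mm9, minus strand, from the scanner files).
Myh11 probe: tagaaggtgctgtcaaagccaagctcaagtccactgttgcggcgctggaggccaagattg

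Lmod1, leiomodin 1, which nucleates actin filaments in smooth muscle, was likewise not well above background on any array, with intensities of 5.79, 7.69 and 8.51 on the TGFb arrays and 19.4, 7.18 and 25.7 on the untreated arrays (chr1:137264581-137264640, mm9, plus strand). After scaling, every TGFb array was below every untreated array for Lmod1. A fold between readings of which none is well above background is not given. The genes above background on all arrays were thus 2 actins, 1 light chain and 4 actin-binding proteins, while the heavy chain was read in neither group.

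**Figure D3:**
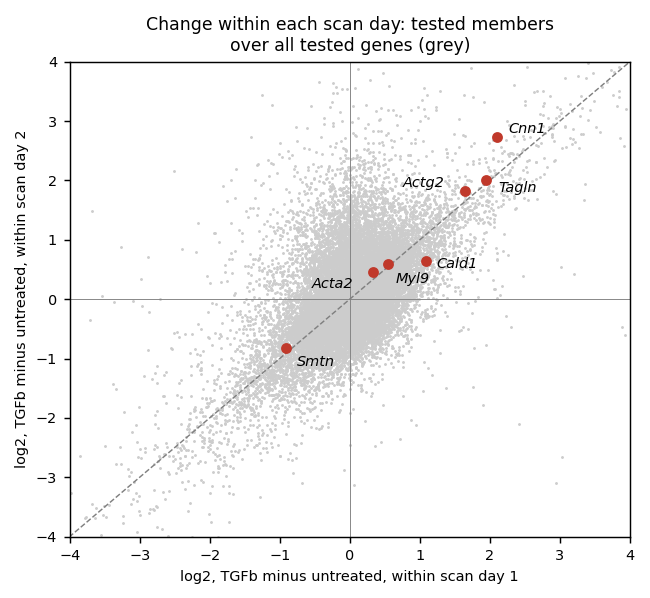
Log2 difference, TGFb minus untreated, within scan day 1 (x axis, 1 TGFb and 2 untreated arrays) and within scan day 2 (y axis, 2 TGFb arrays and 1 untreated) for all tested genes (grey) and the 7 tested contractile genes (red); the dashed line marks equal differences, and grey points beyond 4 log2 units on either axis are not shown. Each of the 7 had the same sign on both scan days, which 67.8% of all tested genes also had.

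Close relatives of these genes, which serve nonmuscle or striated cells, were compared in the same fit. Of 17 tested relatives none passed limma with group alone (1 higher and 2 lower at an unadjusted p under 0.05), and with scan day 1 rose and 4 fell. Tagln2, the widely expressed transgelin, rose by 0.87 ± 0.15 log2 units with scan day (adjusted p = 0.0263), with levels of 7.21, 8.53 and 8.80 on the TGFb arrays and 6.31, 6.26 and 7.84 on the untreated arrays. Its groups overlapped, and the arrays of scan day 2 were the higher ones in both. Acta1, the skeletal alpha actin, fell by 1.24 ± 0.18 with scan day (adjusted p = 0.0170), with 7.08, 6.92 and 7.36 on the TGFb arrays and 8.44, 8.25 and 8.35 on the untreated arrays. Every TGFb array was below every untreated one for Acta1, opposite to Actg2.

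The other relatives that fell with scan day were Lmod3 (-0.96 ± 0.17, adjusted p = 0.0265), a leiomodin of striated muscle, Smtnl2 (-1.22 ± 0.21, adjusted p = 0.0271), a smoothelin relative, and Smtnl1 (adjusted p = 0.0319), a smoothelin-like protein of muscle. Smtnl1 was not well above background on any TGFb array and was at least 2.12-fold lower there. It was tested only through the untreated arrays, so its call adds no separate support. The cardiac actin Actc1 differed by -0.06 ± 0.22 with scan day (adjusted p = 0.902). The cytoplasmic actins Actb and Actg1 differed by 0.29 ± 0.14 (adjusted p = 0.265) and 0.27 ± 0.14 (adjusted p = 0.286), and their probes were saturated on 2 and 3 arrays, as was that of Actc1 on 2.

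Cnn2, a calponin of nonmuscle cells, was 0.60 ± 0.14 higher with scan day and just missed the threshold (adjusted p = 0.0599). Cnn3 differed by -0.07 ± 0.19 (adjusted p = 0.860). The nonmuscle heavy chain Myh9 differed by 0.51 ± 0.16 (adjusted p = 0.121), and the essential light chain Myl6 by 0.34 ± 0.13 (adjusted p = 0.175). The median change of the relatives was 0.30 log2 units with group alone and -0.03 with scan day. Strict CArG boxes were found in 5 of 16 relatives with a listed promoter, namely Actg1, Acta1, Actc1, Cnn2 and Myl6. The looser form was found in Acta1, Actc1 and Myl12a. Of all these, Acta1 fell and the others did not pass. Over 27025 genes with a listed promoter, 1.62% held the strict form and 8.33% the looser one. Whether the matches relate to the changes was not tested.

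**Figure D4:**
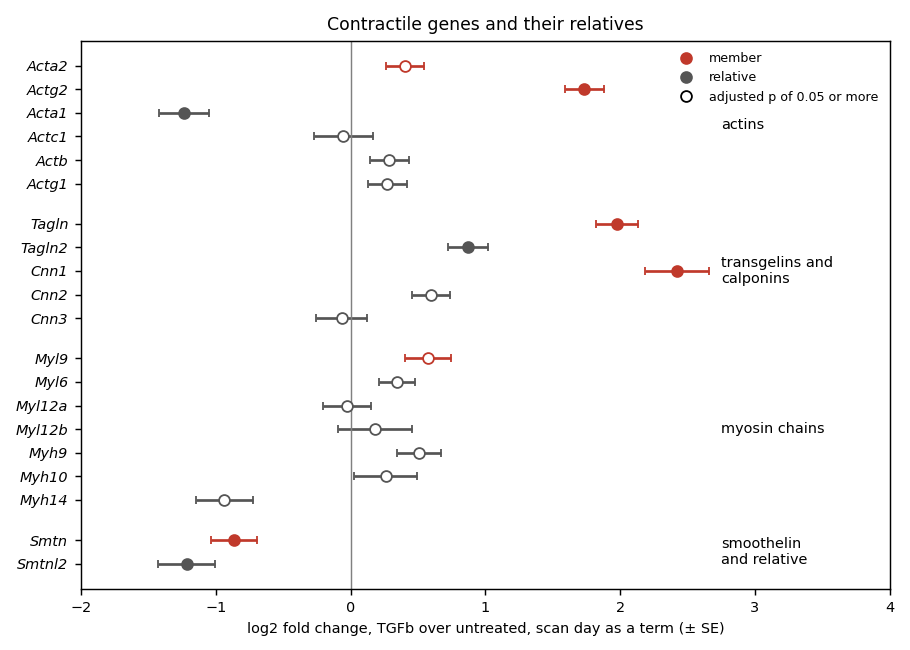
Change in log2 units from the scan-day fit (TGFb over untreated, ± SE, 3 arrays per group) of the tested contractile genes other than Cald1 (red) and of nonmuscle and striated relatives (grey), grouped by protein family; open points have an adjusted p of 0.05 or more. Actg2 lies at 1.73 and Acta1 at -1.24 within the actins, and Smtn and Smtnl2 both lie below 0. The tested relatives Lmod2, Lmod3 and Smtnl1 are not drawn, and each of them had a change below 0.

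Among 12 tested regulators of these genes, Gata6 and Csrp2 rose with group alone and none fell. These calls depend on the arrays and settings used: over all the lists of related genes together, other than cell type markers, 4 genes passed with group alone, and 0 to 4 with an array left out. With scan day 26 passed, against 3 without untreated replicate 3, 7 without TGFb replicate 1, 10 without untreated replicate 1 and 9 without untreated replicate 2. Csrp2, a LIM protein that partners SRF and GATA factors in smooth muscle, averaged 5.48 ± 0.07 on the TGFb arrays and 3.03 ± 0.11 on the untreated arrays (SD, n = 3 each). It rose by 2.46 ± 0.24 log2 units (5.49-fold, adjusted p = 0.0148), with no overlap and little spread. Gata6, a transcription factor of vascular smooth muscle, was well above background on all TGFb arrays and on no untreated array. It was at least 6.64-fold higher (limma adjusted p = 0.0227). That call adds no separate support, because Gata6 was tested only through the TGFb arrays and its untreated readings were not well above background.

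With scan day, Klf4, a zinc finger factor that represses smooth muscle genes, also rose, by 0.91 ± 0.15 (adjusted p = 0.0230). Prkg1, the cyclic GMP-dependent kinase that relaxes smooth muscle, fell by 1.98 ± 0.13 (adjusted p = 0.00234), and had missed the threshold with group alone (adjusted p = 0.0537). Srf itself had levels of 3.39, 3.34 and 3.54 on the TGFb arrays and 3.45, 3.38 and 3.54 on the untreated arrays. Those arrays overlapped fully. The difference was -0.04 ± 0.24 with group alone (limma adjusted p = 0.962) and -0.06 ± 0.14 with scan day (adjusted p = 0.819). The MRTF genes Mkl1 and Mkl2 differed by 0.21 ± 0.14 (adjusted p = 0.399) and 0.23 ± 0.15 (adjusted p = 0.398) with scan day. Myocd, myocardin, was well above background on 1 untreated array only and was not tested.

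Other genes of smooth muscle moved both ways. Of 15 tested, none passed limma with group alone (3 higher and 4 lower at an unadjusted p under 0.05), and with scan day 3 rose and 4 fell. Pdlim7, a PDZ-LIM protein of actin fibres, rose by 1.42 ± 0.15 log2 units (adjusted p = 0.00612) and Flna, filamin A, an actin crosslinker, by 1.18 ± 0.15 (adjusted p = 0.0106), beside Rbpms2. Mrvi1, the substrate through which Prkg1 limits calcium release, fell by 1.99 ± 0.18 (adjusted p = 0.00466). Pgm5, an adhesion protein of muscle, fell by 1.35 ± 0.17 (adjusted p = 0.0102), beside Itga8. The median of the list was -0.18 with group alone and -0.46 with scan day. Kcnmb1, a potassium channel subunit of smooth muscle, was not well above background on any array.

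Of 12 other genes used as marks of myofibroblasts, Itga11 and Spp1 rose with group alone. Itga11, a collagen receptor subunit, had levels of 3.96, 4.66 and 4.73 on the TGFb arrays and 0.77, 0.82 and 1.52 on the untreated arrays, a rise of 3.41 ± 0.36 log2 units (adjusted p = 0.0167). Spp1, osteopontin, rose by 2.45 ± 0.28 (adjusted p = 0.0203). With scan day 6 rose, Col1a1, a chain of type I collagen, among them (1.80 ± 0.20, adjusted p = 0.00742), and 2 fell. The genes that fell were Thy1 (-1.55 ± 0.15, adjusted p = 0.00501), a surface glycoprotein of many fibroblasts, and Fap, a surface protease of activated fibroblasts. The list's median was 1.29 with group alone and 1.10 with scan day.

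Markers of the labelled cell and of others the culture could hold were read on the same arrays. Pax7 and Myod1, which define muscle stem cells and myoblasts, were read above background on each array, with changes of 0.09 ± 0.26 (adjusted p = 0.909) and 0.04 ± 0.69 (adjusted p = 0.986) with group alone. With scan day they differed by -0.02 ± 0.14 (adjusted p = 0.942) and -0.53 ± 0.15 (adjusted p = 0.0950), and Myod1 was -0.59 and -0.48 within scan days 1 and 2. Of 7 tested myoblast markers none passed limma with group alone (2 lower at an unadjusted p under 0.05), and with scan day Des and Chrdl2 fell. Chrdl2 was well above background on all untreated arrays and on no TGFb array. It was tested only through the untreated arrays, so its call adds no separate support. At an unadjusted p under 0.05, 6 of the 7, Chrdl2 among them, were lower with scan day and none higher, and the median of the 7 was -0.53. Over all 21949 tested genes, 5951 had such a limma p with scan day, both directions together. The summed linear level of the 8 myoblast markers, in units of the array's 75th percentile, was 174 on the TGFb array and 281 and 264 on the untreated arrays of scan day 1, and 266 and 319 on the TGFb arrays and 450 on the untreated array of scan day 2. Every TGFb array was thus below the untreated arrays of its own scan day.

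Pericytes also carry part of this contractile set, and their 7 markers summed to 65.9 to 424 on the TGFb arrays and 51.8 to 326 on the untreated arrays. The TGFb array was above both untreated arrays on scan day 1, and the groups overlapped on scan day 2. The largest part of each pericyte sum came from Mcam, which differed by 0.17 ± 0.18 with scan day (limma adjusted p = 0.596). Of 6 tested, Abcc9 fell with group alone (-2.63 ± 0.26, adjusted p = 0.0148), Rgs5 rose with scan day (1.57 ± 0.23, adjusted p = 0.0168), and Kcnj8 was not well above background on any array. The fibroblast markers summed to 2.78 on the TGFb array and 2.21 and 2.13 on the untreated arrays of scan day 1, and to 5.22 and 4.08 on the TGFb arrays and 3.55 on the untreated array of scan day 2. Every TGFb array was above the untreated arrays of its scan day, but most of each sum came from Cd34 alone. Cd34 was 0.58 ± 0.17 higher with scan day (limma adjusted p = 0.101). The 6 tested markers went both ways, with a median of -0.04 with scan day, and Dcn fell. Dpt and Lum were not well above background on any array. Endothelial markers summed to 0.434 to 2.95 on the TGFb arrays and 0.343 to 3.19 on the untreated arrays, and Tek, Emcn and Cldn5 were not well above background on any array. For immune markers the sums were 16.9 to 118 on the TGFb arrays and 16.7 to 67.0 on the untreated arrays. Endothelial and immune sums overlapped on scan day 1, and on scan day 2 both TGFb arrays were above the untreated one. Most of each endothelial sum came from Kdr, and most of each immune sum from Itgam. On scan day 2 the tested markers of each list went both ways, such as Itgam at 0.72 and Cd3e at -0.77 log2 units. Cd68 was not well above background on any array and Ptprc on 1 TGFb array only. None of 3 endothelial or 4 immune markers that were tested passed limma in either fit, and 1 immune marker was higher at an unadjusted p under 0.05 with scan day. The part of any of these cell types in the changes of the contractile genes was not tested.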

How the data were processed

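RNA of the 6 cultures was labelled with Cy3 and hybridised to 1-colour Agilent arrays. Agilent Feature Extraction 10.7.3.1 produced the deposited spot intensities, per the file headers: background and spatial trends were subtracted, and spots near background hold substitute values. A further table deposited by the authors holds log2 values, with column medians of 6.99 to 7.00. Each column correlated best with the array it is named for (r = 0.992 to 0.993 over probes), so its values rise with the scanner signal. The sources used here do not give its normalization, and changes in it can differ in size from those of the scanner values.

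Control spots and outlier spots (176 to 365 of 59305 per array) were left out, intensity was converted to log2, and the array's 75th percentile was subtracted. Replicate spots were averaged per probe. Probes were tested if well above background on at least 3 of 6 arrays, and a gene was its tested probe with the highest mean. Names were updated through RefSeq (GRCm38.p6), which matched 26300 of 55681 probes and renamed 2839. Differences, TGFb minus untreated, were fitted by lmFit and eBayes of limma 3.58.1 (R 4.3.3), with Benjamini-Hochberg adjustment over 21949 genes and a threshold of 0.05. Scan day came from the file headers. Lower bounds use each array's lowest well-above-background signal. The fits were tested on simulated data.

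The 10 genes and all lists were chosen with earlier results of these data known. Named were all 10 genes, and from each other list the genes past the threshold with group alone, the 4 smallest adjusted p-values with scan day and a fixed set that included Srf, Actb and Acta1. Rbpms2, Itga8, Smtnl1, Fap, Kcnmb1 and most of the markers were named after their values were seen. Some genes and lists that were measured are not reported here.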

Additional observations from a re-analysis of the deposited data

How the results depend on the processing

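No tested gene of the 10 changed direction under any alternative run, which covered background correction, scaling, source, filters, probes, scan day, slide, the replicate block and each array left out. Against 2 higher with group alone, 0 were called with the replicate number as a block, 1 with normexp correction, 1 with quantile normalization, 0 with median scaling, 5 in the authors' table, 4 with scan day, 0 with untreated replicates 1 and 2 averaged as 1 sample, and 0 to 0 with an array left out. At those counts of 0, limma gave 3 or 4 of the 7 genes an unadjusted p under 0.05. The labels state no pairing. Deviations from the group means correlated at 0.81, -0.72 and 0.69 for replicate numbers 1, 2 and 3. The 2 arrays of replicate number 2 were scanned on different days, those of 1 and of 3 on the same day. Over all TGFb and untreated arrays, correlations were positive within a scan day and negative between days. They therefore cannot show whether the numbers pair the cultures. Against 0 lower, the authors' table and the scan-day fit each called 1. Over all genes, against 307, the replicate block gave 2, slide as a block 792, median scaling 109, the authors' normalized values 3308, scan day 2227, the averaged samples 0, and an array left out 0 to 196. At an unadjusted p under 0.05, limma gave 2530 with group alone and 1462 with the averaged samples. Of the genes in the lists of related genes, 4 passed with group alone, against 0 with the replicate block, 0 with the averaged samples, 1 with median scaling, 10 with slide as a block and 30 in the authors' table. With scan day, 26 became 10 with the averaged samples. Among the 10 contractile genes with scan day, 4 higher became 0 to 4 with an array left out. There, 1 lower became 0 to 1, 0 without the filter on dim probes, and 0 with the averaged samples. The averaged samples, the scan-day fit combined with other settings, and the looser CArG form were chosen after seeing the data. Tagln, Cnn1 and Actg2 were called in 9 of 9 other settings with scan day, Smtn in 7, Cald1 in 6, Myl9 in 2 and Acta2 in 0. The cause of these shifts was not tested. Low signal over background limits Cnn1, Mylk, Myh11 and Lmod1.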
